A study of Mus musculus and Homo sapiens
Mus musculus with 12 samples.

Results

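The Slc1 family of sodium-coupled amino acid transporters was described across mouse brain nuclei through 6 genes, Slc1a1 to Slc1a6, chosen by symbol from the 34496 gene symbols in 7 brain count tables. The nuclei were profiled by snHH-seq, a droplet method that reads total RNA of single nuclei with random reverse transcription primers and counts unique fragment identifiers (UFIs), each standing for 1 cDNA fragment. The mice were wild-type C57BL/6J males of a few weeks of age, and the brains were broken up in liquid nitrogen. Libraries were grouped by storage of the brain (frozen or fresh) and by the reverse transcription primer, either one that carried a second barcode, specific to the well in which the nuclei were transcribed (Index), or one without it (No_index). There were 2 No_index_frozen, 2 Index_frozen and 2 No_index_fresh libraries and 1 Index_fresh library. Titles and treatment labels name opposite primers for 4 of the 7 libraries, and the titles were followed, since barcodes of 40 bases in the Index and 30 bases in the No_index libraries go with them. The labels do not give the number of mice, so p-values measure only the spread between these libraries, which may be technical.

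Glutamate released at synapses is cleared by uptake rather than by breakdown. Slc1a2 (GLT1) and Slc1a3 (GLAST) are the transporters known for astrocytes, where glutamine synthetase (Glul) turns the captured glutamate into glutamine. Slc1a1 (EAAC1) is known for neurons and for the brush border of the kidney proximal tubule, Slc1a6 (EAAT4) for Purkinje cells of the cerebellum, and Slc1a4 (ASCT1) and Slc1a5 (ASCT2) exchange small neutral amino acids such as alanine, serine and glutamine.

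The 7 libraries held 11198 nuclei, 700 to 3100 each, with 8605214 to 42439731 UFIs per library and a median of 9011.5 to 27543 UFIs per nucleus. Libraries shared at most 10 barcodes in a pair. Nuclei were clustered without the 6 transporters, and clusters were named from marker genes, which gave 8461 neuron-like, 195 astrocyte-like, 322 oligodendrocyte-like, 113 oligodendrocyte precursor-like (OPC-like), 106 endothelial-like, 173 cerebellar granule-like and 34 Purkinje-like nuclei. A cluster of 481 nuclei found only in the Index_frozen libraries (268 and 213) carried 8857 to 9849 CPM on 8 proximal tubule markers, against 17.1 to 26.7 CPM in neuron-like nuclei, and 6994 to 7990 CPM on 7 distal tubule markers. It is called kidney-rich, and its nuclei go against the brain label of those libraries. A cluster of 1223 nuclei led by Gm20752 and Rorb stayed unnamed and is left out of the neuron-like values. Rorb is on the astrocyte marker list, and a leading marker of another class bars the neuron-like name. A hepatocyte-like cluster of 90 nuclei was mixed. Only 20 of its nuclei, all from Index_fresh, held 10 or more hepatocyte UFIs, while the other 70 carried 0 to 5.997 CPM on the hepatocyte markers and 810 to 2275 CPM on 7 microglia markers, against 8.95 to 14.5 CPM in neuron-like nuclei. The granule-like cluster also had all 6 ependymal markers raised, and 20 of its 173 nuclei held 5 or more ependymal UFIs. The endothelial-like cluster also carried 590 to 2904 CPM on 6 pericyte markers, against 3.43 to 8.49 CPM in neuron-like nuclei. Its levels therefore cannot be given to endothelial cells alone. Here CPM are the UFIs of a gene in every 1000000 UFIs of the same nuclei, and n is the number of libraries.

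The 6 genes divided their UFIs unequally among the nuclei. Astrocyte-like nuclei, 1.74% of all nuclei, held 49.0% of the 6878 UFIs of Slc1a3 and 17.8% of the 101760 UFIs of Slc1a2. Purkinje-like nuclei, 0.304% of the nuclei, held 26.9% of the 2800 UFIs of Slc1a6. The kidney-rich nuclei, 4.30% of all, held 64.2% of the 226 UFIs of Slc1a5 and 8.84% of the 20769 UFIs of Slc1a1. Neuron-like nuclei, 75.6% of all, held a like share of the 4304 UFIs of Slc1a4 (75.6%) and of the UFIs of Slc1a1 (74.0%), and astrocyte-like nuclei held 5.27% of those of Slc1a4. Neuron-like nuclei also held most of the UFIs of Slc1a2 (55.3%) and of Slc1a6 (63.5%), and 28.4% of those of Slc1a3. A cluster that stayed unnamed, 10.9% of the nuclei, held 17.2% of the UFIs of Slc1a2. Slc1a2 and Slc1a3, the astrocyte pair, had a correlation of only 0.49 across the 22 clusters on the log2(CPM + 5) scale, a description over clusters that share libraries.

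**Figure D1:**
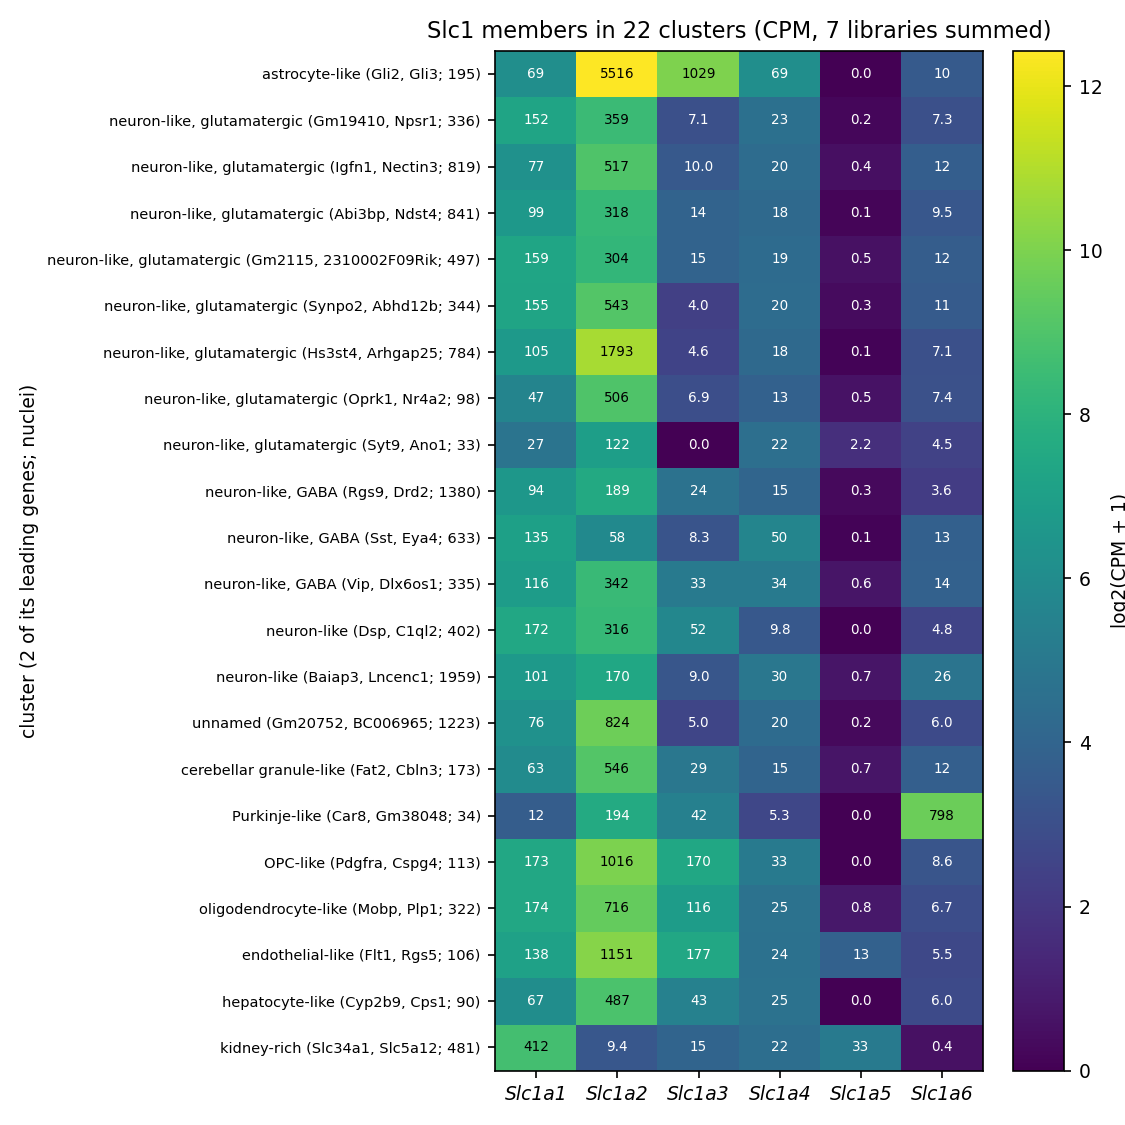
Level of the 6 Slc1 transporters in each of the 22 clusters, coloured by log2(CPM + 1) with the CPM printed and the UFIs of all libraries pooled. Rows are clusters with their class, 2 of their leading genes and the number of nuclei, columns are genes; Slc1a2 and Slc1a3 peak in the astrocyte-like cluster, Slc1a6 in the Purkinje-like cluster, and Slc1a1 and Slc1a5 in the kidney-rich cluster.

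The start regions of Slc1a2 and Slc1a3, highest in astrocyte-like nuclei, and of Slc1a6, highest in Purkinje-like nuclei, are shown because these genes led the classes for which they are known. They are 250 bases from RefSeq (build GRCm38.p6), 5′ to 3′ on the strand of the gene, with E-boxes (CANNTG, the same letters on both strands) in capitals.
Slc1a2, chr2:102706188-102706437, plus strand: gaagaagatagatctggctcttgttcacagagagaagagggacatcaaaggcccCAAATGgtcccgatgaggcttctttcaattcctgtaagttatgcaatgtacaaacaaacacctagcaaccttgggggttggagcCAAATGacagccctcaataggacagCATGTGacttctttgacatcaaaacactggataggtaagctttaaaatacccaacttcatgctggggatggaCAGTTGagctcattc
Slc1a3, chr15:8710808-8711057, minus strand: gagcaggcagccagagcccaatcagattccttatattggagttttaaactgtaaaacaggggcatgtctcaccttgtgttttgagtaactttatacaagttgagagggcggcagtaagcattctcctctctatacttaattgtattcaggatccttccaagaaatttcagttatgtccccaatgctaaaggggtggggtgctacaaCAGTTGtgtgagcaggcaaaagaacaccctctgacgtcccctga
Slc1a6, chr10:78780246-78780495, plus strand: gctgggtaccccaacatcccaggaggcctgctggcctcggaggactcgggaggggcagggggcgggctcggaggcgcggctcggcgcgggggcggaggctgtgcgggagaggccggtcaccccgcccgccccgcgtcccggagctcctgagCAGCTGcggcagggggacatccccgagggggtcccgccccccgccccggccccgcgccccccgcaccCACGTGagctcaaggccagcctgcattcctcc
The Slc1a2 and Slc1a3 regions both have a GC content of 44.8%, below the median of 52.4% over 32851 RefSeq promoters, whereas that of Slc1a6 is 78.8%. The regions hold 4, 1 and 2 E-boxes, letters found in 66.2% of those promoters, so a match is a description and not a binding site. The RefSeq start of Slc1a2 lies 47779 bases inside the gene as GENCODE draws it (chr2:102658659-102790784, plus strand), so the region shown precedes an internal start.

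Slc1a2, the main transporter for clearing glutamate, was 3.62 ± 0.57 higher on the log2(CPM + 5) scale in astrocyte-like than in neuron-like nuclei (mean ± SD of the difference within libraries, n = 7). In astrocyte-like nuclei it stood at 2664 and 4492 CPM in No_index_frozen, 9023 and 7111 in Index_frozen, 5381 and 4463 in No_index_fresh and 3930 CPM in Index_fresh. Neuron-like nuclei of the same libraries, in the same order, held 413 and 328, 428 and 391, 423 and 462, and 364 CPM. The classes did not overlap, and the lowest astrocyte-like value lay far above the highest neuron-like one, although the astrocyte-like values, from 16 to 49 nuclei each, spread over a wide range. An exact two-sided permutation test that flips the sign of each library gave p = 0.0156, the smallest that 7 libraries allow, and 0.0188 after Benjamini-Hochberg adjustment over the 6 genes. The classes were built from other genes of these nuclei, so the test concerns the libraries and not the choice of nuclei.

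Slc1a3, the transporter of astrocytes and radial glia, showed the widest gap of the 6. Its mean was 972 ± 346 CPM in astrocyte-like against 14.5 ± 3.77 CPM in neuron-like nuclei (n = 7), a log2 difference of 5.59 ± 0.64 in favour of astrocytes in 7 of 7 libraries. The astrocyte-like values ran from 603 CPM in Index_fresh to 1594 CPM in Index_frozen 1, so the library order was close to but not the same as that of Slc1a2. Slc1a4, the alanine and serine exchanger, was also higher in astrocyte-like nuclei in 7 of 7 libraries, at 74.9 ± 25.8 against 23.7 ± 2.90 CPM (1.41 ± 0.41). Both passed with the same exact permutation p of 0.0156 (0.0188 adjusted).

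Slc1a1, the neuronal transporter, went the other way. It was lower in astrocyte-like nuclei in 7 of 7 libraries, at 77.1 ± 24.5 CPM against 111 ± 7.14 CPM in neuron-like nuclei (-0.55 ± 0.41; exact permutation p = 0.0156, adjusted 0.0188), and the ranges of the classes overlapped. Slc1a6 did not pass (-0.35 ± 0.48, adjusted p = 0.0938 by the exact permutation test), with 10.5 ± 7.03 CPM in astrocyte-like and 13.6 ± 3.10 CPM in neuron-like nuclei, although it passed without No_index_frozen 1 (-0.47, adjusted p = 0.0312 by the exact test over 6 libraries). Slc1a5 had no UFI in the 195 astrocyte-like nuclei. A count of 0 there allows up to 0.915 CPM (3 UFIs), above the 0.332 CPM of neuron-like nuclei, so a difference was not detectable at this depth. The exact permutation test still called Slc1a5 lower in 7 of 7 libraries (p = 0.0156, adjusted 0.0188). With 0 astrocyte-like UFIs the difference could not be positive in any library, so this call is not read as a result. Its p-value did enter the adjustment over the 6 genes, on which the adjusted 0.0188 of the others depends. All neuron markers together stood at 8886 to 13869 CPM in astrocyte-like and 18033 to 19708 CPM in neuron-like nuclei, and the part of neuronal RNA in the astrocyte-like levels of Slc1a1 and Slc1a6 was not tested.

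**Figure D2:**
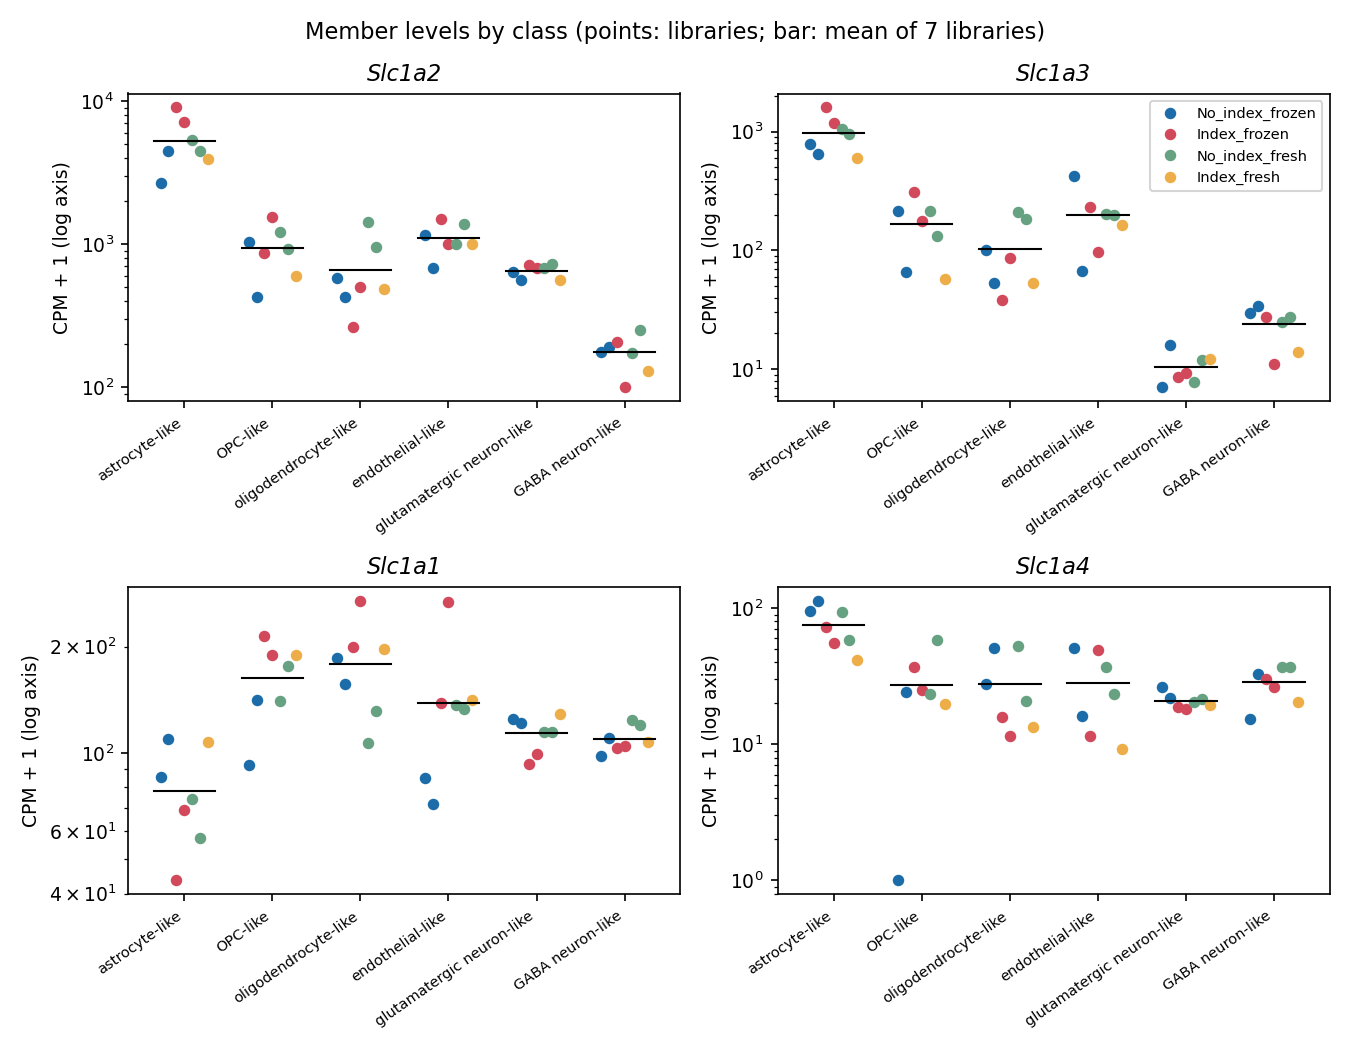
CPM of Slc1a2, Slc1a3, Slc1a1 and Slc1a4 in each library by class of nuclei, on a log axis drawn as CPM + 1. Neurons are drawn as glutamatergic and GABA neuron-like nuclei. Each point is 1 library; the astrocyte-like points of Slc1a2 (2664 to 9023 CPM) and Slc1a3 (603 to 1594 CPM) lie above all neuron-like points, while those of Slc1a1 overlap with neurons.

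Introns were counted, so levels were also divided by gene span in kilobases, which assumes that UFIs grow with span and was not checked. On that scale Slc1a2 led in astrocyte-like nuclei with 40.1 ± 16.2 CPM per kb. Its span was the 132 kb of GENCODE, and the RefSeq start, 47779 bases inside, would give a shorter span and higher values. Slc1a3 followed with 12.7 ± 4.52, Slc1a4 with 2.45 ± 0.845 and Slc1a1 with 0.977 ± 0.311 CPM per kb. In neuron-like nuclei Slc1a2 still led with 3.04 ± 0.337 CPM per kb, ahead of Slc1a1 with 1.40 ± 0.0905, Slc1a4 with 0.777 ± 0.0951 and Slc1a6 with 0.395 ± 0.0903. Slc1a3, at 0.190 ± 0.0492 CPM per kb, thus came behind these 4 in neurons while being the runner-up in astrocytes. Slc1a1 overlaps Gm5822 and 4430402I18Rik on the opposite strand, and whether the counting used strand is not given in the sources used here.

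Thinned to 3000 UFIs per nucleus, Slc1a2 was detected in 97.4% of astrocyte-like nuclei (exact binomial 95% interval 94.1 to 99.2%) and Slc1a3 in 82.1% (75.9 to 87.2%); without thinning the shares were 99.5% and 97.9%. In kidney-rich nuclei, found only in Index_frozen and set beside them for comparison, the thinned shares were 2.91% and 1.87% (7.28% and 5.20% unthinned). These nuclei carried 194 to 277 CPM on the 7 neuron markers, against 8886 to 13869 CPM in astrocyte-like nuclei. Their shares therefore cannot measure stray brain RNA in the other classes. Slc1a3 reached 3.05% of neuron-like nuclei (2.69 to 3.44%; 10.9% unthinned), inside the kidney-rich interval of 0.859 to 3.52%. That kidney-rich share rests mostly on 1 sub-cluster, chosen after its values were seen. Without it the share was 0.744% (0.154 to 2.16%, and 3.72% unthinned), below that of neuron-like nuclei. The median depths were 12410 UFIs in astrocyte-like, 12896 in neuron-like and 8765 in kidney-rich nuclei. Thinning left out 3 neuron-like nuclei and none of the other 2 classes. Intervals cover counting error only.

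Genes that work beside the astrocyte transporters were read from a list of 20 for glutamate handling. Of these, 9 were higher in astrocyte-like nuclei in 7 of 7 libraries, as were 12% of the 10174 genes with a mean of at least 5 CPM over both classes, a level that 19 of the 20 reached. Glul, which makes glutamine, stood at 135 ± 55.4 against 10.9 ± 3.52 CPM in neurons, and Slc38a3, which exports it, at 136 ± 37.4 against 2.62 ± 0.684 CPM. Kcnj10, the potassium channel of astrocytes, had 138 ± 57.7 against 2.90 ± 1.25 CPM, and Atp1b2, a beta subunit of the sodium pump, 305 ± 53.2 against 38.6 ± 11.9 CPM. Glud1, Slc7a11, Slc7a10 and Prodh were also among the 9. A further 4, among them the vesicular glutamate transporter Slc17a6, were lower in astrocyte-like nuclei in 7 of 7 libraries (30.3 ± 16.4 against 48.5 ± 17.6 CPM for Slc17a6), as were 9.9% of those genes.

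Neurons were not uniform in Slc1a2. Glutamatergic neuron-like nuclei, the 3752 nuclei of clusters whose vesicular glutamate transporters outweighed GABA genes at least 5-fold, held 642 and 561, 715 and 687, 682 and 722, and 561 CPM of Slc1a2 over the libraries in the order above. GABA neuron-like nuclei (2348, the reverse ratio) held 175 and 190, 207 and 99.9, 173 and 250, and 129 CPM. As class sums, the lowest glutamatergic value exceeded the highest GABA value more than 2-fold, although single clusters of the classes overlapped. The GABA group held the 1380 nuclei of the cluster led by Rgs9 and Drd2, with 189 CPM of Slc1a2 (pooled). The glutamatergic group held the 784 nuclei of the cluster led by Hs3st4, with 1793 CPM (21318 UFIs). This comparison does not separate transmitter type from the cluster make-up of the groups. The log2 difference was 1.92 ± 0.41 (n = 7, higher in 7 of 7 libraries; exact permutation p = 0.0156, adjusted 0.0469). Slc1a3 was lower in glutamatergic nuclei in 7 of 7 libraries (9.39 ± 3.13 against 23.1 ± 8.37 CPM, -0.92 ± 0.57, adjusted p = 0.0469 by the same exact test). A Slc1a3 UFI was found in 2.56% and 3.37% of the thinned nuclei, but in 10.0% and 9.03% unthinned, the reverse order. The cluster led by Dsp, C1ql2 and Prox1, the neuron-like cluster highest in Slc1a3, met neither ratio and was in neither group. That Slc1a3 difference was -0.03 when clustered at a resolution of 1.2 and -0.04 with 20 principal components. Slc1a1 did not pass (113 ± 13.3 against 109 ± 9.35 CPM; 0.05 ± 0.19, higher in 3 of 7 libraries, adjusted p = 0.656 by the exact test), nor did Slc1a4 (-0.34 ± 0.49) or Slc1a6 (0.16 ± 0.20). For Slc1a6 the direction turned with the naming of clusters, to -0.73 at the resolution of 1.2 and -0.59 with a transmitter ratio of 3 (adjusted p = 0.0312 and 0.0469 by the exact test), and Slc1a4 passed at that resolution (-0.65, adjusted p = 0.0312). Slc1a5 had 18 and 9 UFIs in all. With any 1 library left out the adjusted p of Slc1a2 and Slc1a3 rose to between 0.0625 and 0.0938, since 6 libraries allow no smaller raw p than 0.03125.

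Within the glutamatergic nuclei, 1 cluster stood out for Slc1a2. The 784 nuclei led by Hs3st4, Arhgap25 and Tle4, genes known from corticothalamic neurons of the deep cortex, held 1778 ± 140 CPM (1590 to 1961 over 7 libraries). The unnamed cluster led by Gm20752 and Rorb came next among clusters outside glia and vessels, with 821 ± 80.3 CPM (686 to 923). Every other neuron-like cluster had a pooled Slc1a2 level of 543 CPM or less, and the lowest was the cluster led by Sst, the somatostatin interneuron gene, with 58.8 ± 24.7 CPM (21.3 to 97.3). Between the Hs3st4 and Sst clusters, no library's value came near the other range. Other clusters of both kinds overlapped. Mean Slc1a2 with No_index and Index was 393 and 273 CPM in a GABA cluster of 335 nuclei. It was 333 and 298 CPM in a glutamatergic cluster of 841 nuclei and 364 and 268 CPM in another of 497. The glutamatergic cluster led by Syt9 and Ano1 held 155 and 89.1 CPM. The remaining glutamatergic clusters lay above all GABA clusters. These are values of clusters chosen for their level and carry no test.

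Astrocyte markers did not follow Slc1a2 into the Hs3st4 cluster. Aqp4, the astrocyte water channel, stood at 0.505 CPM there against 1.35 CPM in all neuron-like nuclei and 140 CPM in astrocyte-like nuclei. Gja1, the astrocyte gap junction gene, was at 1.18 against 2.14 and 211 CPM (pooled values). Slc1a3 itself was at 4.62 CPM in that cluster, below the 14.2 CPM of all neuron-like nuclei. Thinned to 3000 UFIs, 66.1% of glutamatergic (64.6 to 67.6%) and 21.5% of GABA nuclei (19.8 to 23.2%) had a Slc1a2 UFI, against 2.91% of kidney-rich nuclei; unthinned, the shares were 91.2%, 48.7% and 7.28%. Glutamatergic and GABA nuclei had median depths of 13515.5 and 11947 UFIs.

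The neighbours of Slc1a2 on chromosome 2 were far lower in level than Slc1a2 in the Hs3st4 cluster and in astrocyte-like nuclei. Pamr1, which ends 15618 bases upstream on the same strand, nevertheless had a pattern like that of Slc1a2, with 45.2 CPM in the Hs3st4 cluster and 39.7 CPM in astrocyte-like nuclei against 20.9 CPM in glutamatergic and 2.52 CPM in GABA neuron-like nuclei. Cd44, 20357 bases downstream on the other strand, had 64.4 and 71.7 CPM in the Hs3st4 cluster and astrocyte-like nuclei, and 60.1 and 50.8 CPM in glutamatergic and GABA nuclei. Gm13872, an antisense gene inside Slc1a2, had 3 UFIs in the Hs3st4 cluster and 3 in astrocyte-like nuclei. Slc1a2 exceeded each of these genes by more than an order of magnitude in both groups of nuclei.

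The other transporters had their own high clusters among neurons, again given without a test. Slc1a3 was highest in the cluster led by Dsp, C1ql2 and Prox1, genes known from dentate granule neurons, at 52.3 CPM (34.9 to 90.2 over libraries), where Slc1a1 also had its highest neuron-like level, 172 CPM (151 to 201). The Sst cluster, lowest for Slc1a2, was highest for Slc1a4 with 49.96 CPM (24.9 to 59.1). Slc1a6 was highest in a cluster of 1959 nuclei with Baiap3 and Lncenc1 among its leading genes, at 26.3 CPM (22.1 to 33.7). Slc1a1 lay between 76.9 and 172 CPM in 11 of the 13 neuron-like clusters; the others were the 98 nuclei led by Oprk1 and Nr4a2 (47.4 CPM) and the 33 nuclei led by Syt9 and Ano1 (26.7 CPM).

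Of the other brain classes, endothelial-like and OPC-like nuclei had 1103 ± 273 and 948 ± 373 CPM of Slc1a2, and 196 ± 115 and 166 ± 89.3 CPM of Slc1a3 (n = 7). Oligodendrocyte-like nuclei had 664 ± 400 CPM of Slc1a2, with a spread of 263 to 1434 CPM that covered the glutamatergic values. The 12 astrocyte markers together stood at 1629 to 4155 CPM in endothelial-like, 1570 to 5028 in OPC-like and 782 to 2784 CPM in oligodendrocyte-like nuclei, against 707 to 800 CPM in neuron-like and 5259 to 14575 CPM in astrocyte-like nuclei, and the part of astrocyte RNA in these Slc1a2 and Slc1a3 levels was not tested. Astrocyte-like, OPC-like, oligodendrocyte-like, endothelial-like, glutamatergic and GABA neuron-like nuclei, 6 classes found in every library, were put in order by mean, and none of the 30 comparisons of neighbouring classes passed after adjustment (smallest adjusted p = 0.067 by the exact permutation test, at a raw p of 0.0156, the smallest that 7 libraries allow). The order was taken from the same means. At that smallest raw p a comparison could pass only if many of the 30 shared it, so the lack of calls is not read as likeness of the classes. Astrocyte-like nuclei came first for Slc1a2, Slc1a3 and Slc1a4 and exceeded the next class in 7 of 7 libraries for each. For Slc1a6 no order could be read among these 6 (10.5 ± 7.03 CPM in astrocyte-like and 9.91 ± 2.09 CPM in glutamatergic nuclei), and Purkinje-like nuclei and the neuron-like nuclei of neither transmitter (19.02 to 30.3 CPM over libraries) lay higher. Endothelial-like nuclei, which also carried pericyte markers, came first for Slc1a5. They had 22 UFIs in 106 nuclei and 15.7 ± 15.8 CPM, higher than oligodendrocyte-like nuclei in 6 of 7 libraries.

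Among the brain classes Slc1a1 had its highest mean in oligodendrocyte-like nuclei, at 177 ± 53.1 CPM, and this level was unevenly shared. The 63 nuclei with at least 5 UFIs of Enpp6, a gene of newly formed oligodendrocytes, held 1015 and 683 CPM in No_index_frozen, 696 and 690 in Index_frozen, 298 and 349 in No_index_fresh, and 1026 CPM in Index_fresh. The other 259 oligodendrocyte-like nuclei held 59.1 to 112 CPM of Slc1a1, so every library's Enpp6-rich value lay above all of them, while OPC-like nuclei had 91.2 to 213 CPM. The Enpp6 set was chosen after its values were seen and is not tested. At a clustering resolution of 1.2 a cluster of 92 nuclei led by Bcas1, Enpp6, Tns3 and Gpr17 separated without the use of Slc1a1, with 487 ± 174 CPM (288 to 724, n = 7). Thinned to 3000 UFIs, 65.1% of the Enpp6-rich nuclei had a Slc1a1 UFI (52.0 to 76.7%; 90.5% unthinned), against 26.9% of neuron-like nuclei (67.4% unthinned) and 2.94% of Purkinje-like nuclei (11.8% unthinned).

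**Figure D3:**
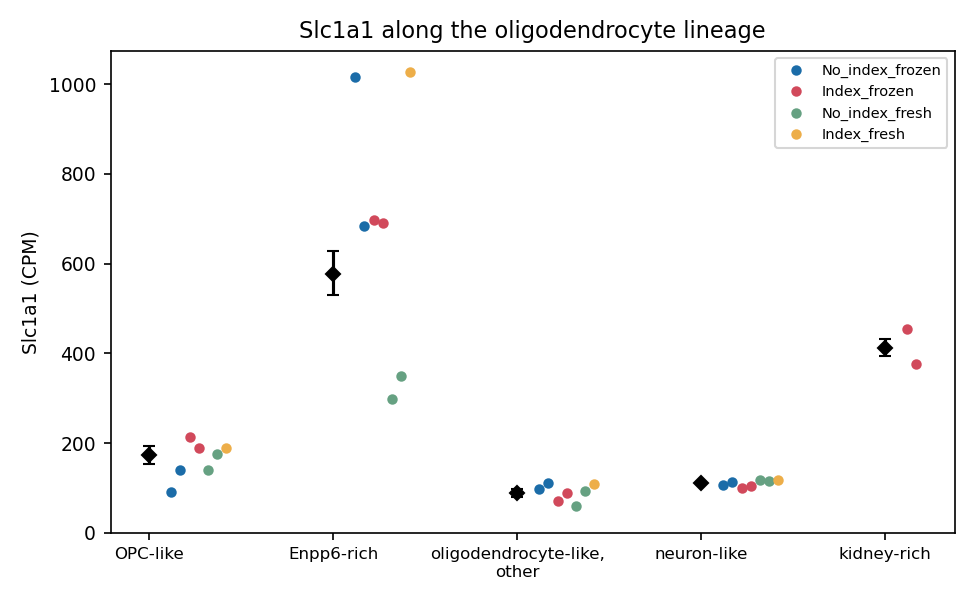
CPM of Slc1a1 in each library for classes of nuclei. Each point is 1 library; Enpp6-rich nuclei (298 to 1026 CPM) and kidney-rich nuclei (376 and 454 CPM, Index_frozen only) lie above neuron-like nuclei (100.5 to 117.6 CPM).

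Slc1a6 marked the Purkinje-like nuclei. Its level there was 1032 CPM (14 nuclei) and 696 CPM (13 nuclei) in No_index_frozen, and 406 CPM (1 nucleus) and 713 CPM (6 nuclei) in No_index_fresh. The other 3 libraries held no Purkinje-like nucleus. Pooled, the level was 798 CPM (exact Poisson 95% interval 742 to 857) against 12.4 CPM in cerebellar granule-like and 12.9 CPM in neuron-like nuclei. Thinned to 3000 UFIs, 67.6% of the 34 nuclei (49.5 to 82.6%; 97.1% unthinned) had a UFI of Slc1a6, against 3.78% of neuron-like (15.7% unthinned) and 0.208% of kidney-rich nuclei (0.416% unthinned). The Purkinje-like nuclei were deep, with a median of 26728.5 UFIs. Slc1a1 had its lowest pooled level of the 22 clusters in these nuclei, with 11 UFIs or 11.6 CPM (5.81 to 20.8).

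Summed over all nuclei, where fewer cells of a type and less RNA per cell cannot be told apart, Slc1a6 stood at 52.8 and 34.4 CPM in No_index_frozen, 8.33 and 8.46 in Index_frozen, 14.0 and 16.4 in No_index_fresh, and 9.59 CPM in Index_fresh. All Index values lay below all No_index values. In an edgeR quasi-likelihood fit with storage and primer as terms, Slc1a6 was lower with the Index primer by a log2 fold change of -1.57 ± 0.36 (SE; adjusted p = 0.0278). Granule-like nuclei made up 6.71% and 6.5% and Purkinje-like nuclei 2.00% and 1.62% of the No_index_frozen libraries, and the 3 Index libraries held no Purkinje-like and 4 granule-like nuclei, all 4 of them with 5 or more ependymal UFIs. Without these nuclei, the values were 15.4 and 15.2, 8.33 and 8.46, 13.4 and 13.7, and 9.59 CPM, and the fold change was -0.62 with an adjusted p of 0.0122 in edgeR. With all nuclei the call rested on single libraries, as the adjusted p was 0.0507 and 0.0739 without either No_index_frozen library and 0.104 and 0.113 without either Index_frozen library.

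Neuron-like nuclei alone held 17.2 and 16.8 CPM of Slc1a6 in No_index_frozen, 9.96 and 10.5 in Index_frozen, 14.9 and 14.8 in No_index_fresh, and 10.7 CPM in Index_fresh, so the primers again did not overlap (-0.47 ± 0.09 SE, adjusted p = 0.00497 in edgeR), as was the case for 30.9% of genes. The mean was lower with Index in 12 of 13 neuron-like clusters, with ranges apart in 2. The same count was 12 for Slc1a2 and Slc1a4, 10 for Slc1a3 and 8 for Slc1a1, so it is not particular to Slc1a6. These counts use CPM without the scaling of the edgeR fit, and the share over all genes was not counted. In that fit Slc1a2 (0.11) and Slc1a1 (0.08) were higher with Index, Slc1a3 (-0.34) and Slc1a4 (-0.16) lower, and none of these passed. In the Baiap3 cluster Slc1a6 was at 23.5 with Index against 29.3 CPM with No_index. Cerebellar granule genes moved with the primer in the same neuron-like nuclei, with Fat2 at 31.3 ± 21.8 CPM with No_index against 0.545 ± 0.206 with Index, and Cbln3 at 13.4 ± 8.55 against 0.0980 ± 0.0406 CPM. Within No_index, Fat2 was at 46.8 and 53.2 CPM frozen and 11.7 and 13.3 CPM fresh. Cbln3 was at 17.9 and 23.2 CPM frozen and 5.29 and 7.29 CPM fresh. All 6 granule markers were lower on average with Index, and of the 6 Purkinje markers Pcp2, Car8, Ppp1r17 and Pvalb were lower and Calb1 and Itpr1 higher. Ppp1r17 was at 0.700 ± 0.239 against 0.192 ± 0.0705 CPM and Car8 at 6.53 ± 2.60 against 3.79 ± 0.869 CPM. For Car8 the primers overlapped, with 4.48 and 4.34 CPM in No_index_fresh against 4.39 CPM in Index_frozen 1. The part of these cerebellar genes in the Slc1a6 difference was not tested.

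**Figure D4:**
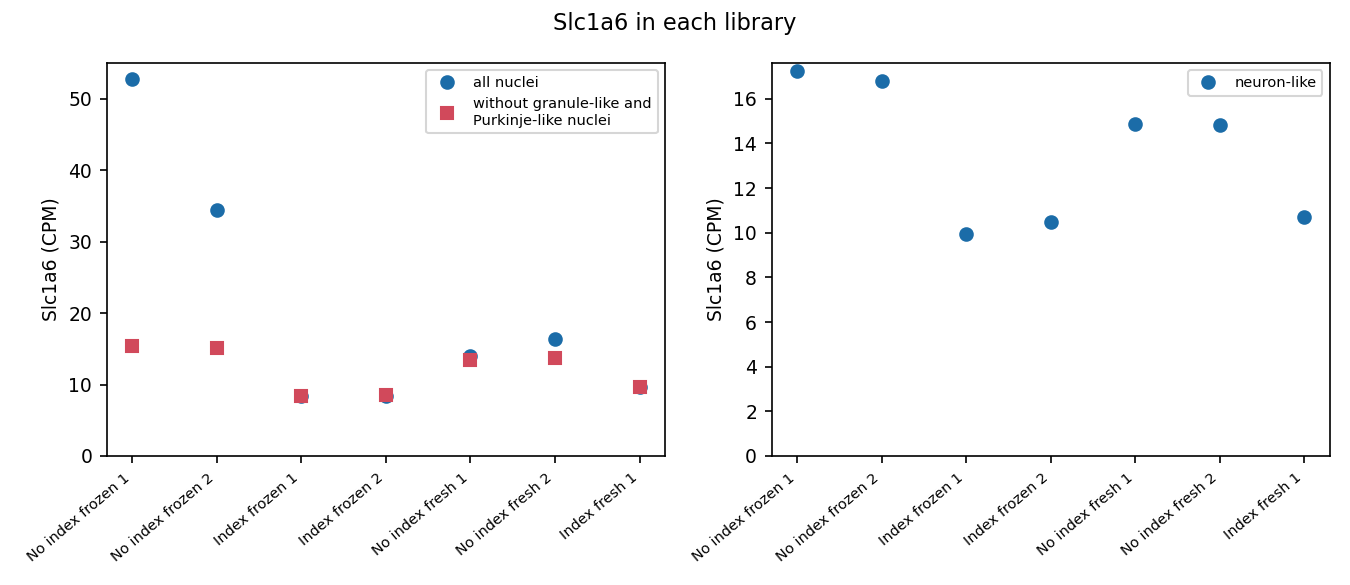
CPM of Slc1a6 in each library, left for all nuclei with and without the granule-like and Purkinje-like nuclei, right for neuron-like nuclei. Each point is 1 library; leaving out the cerebellar nuclei brings No_index_frozen from 52.8 and 34.4 to 15.4 and 15.2 CPM, and Index libraries remain lowest in both panels.

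The kidney-rich nuclei of the Index_frozen libraries carried a different set of Slc1 transporters. Slc1a1, the acidic amino acid transporter of the proximal tubule, stood at 454 CPM (exact Poisson 95% interval 425 to 483) in Index_frozen 1 and 376 CPM (351 to 401) in Index_frozen 2, against 99.95 and 105 CPM in the other nuclei of the same libraries. These 268 and 213 nuclei held 28.3% and 22.2% of their library's Slc1a1 UFIs. Thinned, 63.4% of them had a Slc1a1 UFI (58.9 to 67.7%; 88.1% unthinned). Slc1a5, the glutamine exchanger, was at 25.7 (19.3 to 33.5) and 38.7 (31.1 to 47.5) CPM against 0.331 and 0.577 CPM, and the kidney-rich nuclei held 87.1% and 84.3% of its UFIs. Both genes were higher in both libraries, with intervals apart. With 2 libraries no test was made.

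Slc1a2, Slc1a3 and Slc1a6 went the other way. Slc1a2 was at 11.4 and 7.65 CPM in kidney-rich nuclei against 655 and 575 CPM in the others, and Slc1a6 had 1 UFI in each library. Slc1a3 was at 7.62 against 52.4 CPM in Index_frozen 1 and at 21.7 against 32.1 CPM in Index_frozen 2, so the libraries differed in size of the gap. Slc1a4 was alike in both kinds of nuclei within counting error, at 19.99 (14.4 to 27.0) against 22.2 CPM and 23.4 (17.6 to 30.4) against 21.7 CPM. Per kb of gene span the kidney-rich order was Slc1a1 with 5.25 ± 0.698, Slc1a5 with 1.90 ± 0.541 and Slc1a4 with 0.710 ± 0.0783 CPM per kb (n = 2).

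**Figure D5:**
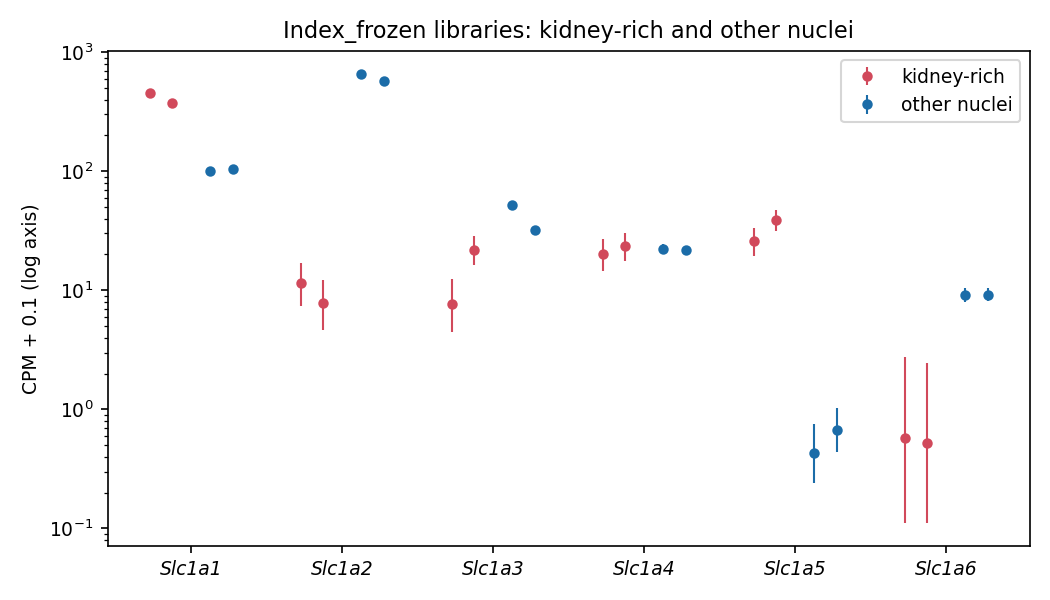
CPM of the 6 Slc1 genes in kidney-rich and in all other nuclei of Index_frozen 1 and 2, on a log axis, with exact Poisson 95% intervals. Slc1a1 and Slc1a5 are higher in the kidney-rich nuclei of both libraries, Slc1a2, Slc1a3 and Slc1a6 lower, and Slc1a4 overlaps.

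The kidney-rich cluster was itself mixed, and its 9 sub-clusters stayed unnamed. Slc1a1 was above 170 CPM in all 9, from 174 CPM in 26 nuclei led by Kcnk3 and steroid genes such as Cyp11b1 to 710 CPM (638 to 788) in 55 nuclei led by Ccdc180. Nuclei with the podocyte genes Wt1 and Podxl among their leading genes (19 nuclei) had 361 CPM (277 to 462), and 94 nuclei with Slc7a7 among their leading genes had 509 CPM (462 to 559). Slc1a5 was highest, at 94.5 CPM (72.9 to 120), in 78 nuclei that had Gp2 among their leading genes and 6 of 7 distal markers raised, which held 65 of the 145 kidney-rich UFIs. The same sub-cluster held 48 of the 67 Slc1a3 UFIs, in 12.8% of its nuclei, at 11.9 CPM in one library and 125 CPM in the other. Slc1a4 ranged from 7.07 to 48.2 CPM over the sub-clusters. Slc1a1 was thus the only one of the 6 with at least 40 UFIs in every sub-cluster.

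Of 10 other amino acid transporters of the kidney, 9 were higher in the kidney-rich nuclei than in the other nuclei of the Index_frozen libraries by more than 3-fold in their mean, as were 23.9% of the 11141 genes with a mean of at least 5 CPM over both (8 of the 9 transporters at that level). Slc3a1 and Slc7a9, partners in cystine and dibasic amino acid uptake, stood at 462 ± 2.70 and 233 ± 12.3 CPM (n = 2) against 1.42 and 0.222 CPM. Slc6a19 and Slc6a18, neutral amino acid transporters of the brush border, stood at 277 ± 66.04 and 347 ± 2.35 CPM against 0.292 and 0.168 CPM. The exception was Slc3a2, the heavy chain of several exchangers, with 29.6 ± 7.47 against 25.2 CPM.

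For storage, frozen and fresh libraries were compared in edgeR with the primer as a term. Over all nuclei 0.207% of 19299 genes passed in edgeR at an adjusted threshold of 0.05, and 0 of the 6 transporters did. The smallest adjusted p of the 6 was 0.329 in edgeR, Slc1a5 and Slc1a6 fell under 0.05 before adjustment, and DESeq2 called 0 as well. Frozen and fresh values overlapped for all 6, whereas they did not for 7.6% of all genes. Without the Index_fresh library Slc1a2 (-0.31, adjusted p = 0.0220) and Slc1a6 (1.51, adjusted p = 8.9e-05) passed in edgeR. Over 14 alternatives the storage difference of Slc1a6 ranged from 0.0223 to 1.51, and in neuron-like nuclei it was 0.12. Purkinje-like nuclei numbered 14 and 13 in No_index_frozen and 1 and 6 in No_index_fresh, and their part in the Slc1a6 difference was not tested. In neuron-like nuclei 0.359% of 17562 genes passed and 0 of 5 transporters did, 0 of them under an unadjusted 0.05 and 0 by DESeq2. Slc1a1 there was at 106 ± 5.83 CPM frozen and 117 ± 1.17 CPM fresh, without overlap, as were 6.25% of genes. In astrocyte-like nuclei no gene of 7701 passed (0%; 333 under an unadjusted 0.05, 1 by DESeq2), and 0 of 5 transporters did, 0 of them unadjusted and 0 by DESeq2. Slc1a5 had too few UFIs to be tested in either set. Astrocyte-like Slc1a2 was at 2664 to 9023 CPM frozen and 3930 to 5381 CPM fresh. Both Index_frozen values lay above both No_index_frozen values, while Index_fresh was the lowest of the fresh libraries. These ranges are therefore not the spread within a single group.

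For the primer, 15.8% of genes passed over all nuclei and 2 of 6 transporters did, in edgeR and in DESeq2. Beside Slc1a6, Slc1a1 was higher with Index, at 128 and 125 CPM in Index_frozen and 114 CPM in Index_fresh against 97.6, 107, 111 and 108 CPM with No_index (0.28 ± 0.05 SE, adjusted p = 0.0122 in edgeR). That difference was 0.16 (adjusted p = 0.0430) without kidney-rich and hepatocyte-like nuclei and 0.11 (adjusted p = 0.157) without kidney-rich and cerebellar nuclei, both in edgeR, and its adjusted p was 0.0549 without Index_frozen 2. Slc1a4 did not overlap between primers but did not pass (-0.24 ± 0.08 SE, adjusted p = 0.0843 in edgeR), and passed without No_index_frozen 1 (-0.31, adjusted p = 0.0245) and without cerebellar nuclei (-0.30, adjusted p = 0.0357). Without Index_fresh, Slc1a2 (0.26, adjusted p = 0.0129) and Slc1a5 (2.65, adjusted p = 0.000167) also passed in edgeR. Groups of libraries did not overlap for 3 of 6 transporters and 27.9% of all genes. In neuron-like nuclei 18.1% of genes passed, and of 5 transporters Slc1a6 did. In astrocyte-like nuclei 0.143% passed and 0 of 5 transporters did (smallest adjusted p = 0.546 in edgeR; Slc1a2 and Slc1a4 had an unadjusted p under 0.05, and DESeq2 called 0).

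Whether storage acted alike with both primers was asked with an interaction term in edgeR over all nuclei, which 16.4% of genes and 4 of 6 transporters passed. Index_fresh is 1 library, so the errors and p-values of this term assume that it varies like the libraries of the other groups. Slc1a3 was at 48.8 and 31.4 CPM frozen and 18.8 CPM fresh with Index, but at 42.8 and 33.6 frozen and 39.7 and 50.6 fresh with No_index. The frozen minus fresh difference was thus higher with Index by 1.27 ± 0.28 (log2, SE; adjusted p = 0.00561 in edgeR). The same term was 0.52 ± 0.11 for Slc1a2 (0.00354, adjusted p in edgeR) and 3.24 ± 0.66 for Slc1a5 (adjusted p = 0.00346 in edgeR). For Slc1a6 it was -1.75 ± 0.26 (adjusted p = 0.000321). Without kidney-rich and cerebellar nuclei the term was 0.48 for Slc1a5 (adjusted p = 0.793) and -0.28 for Slc1a6 (0.281), while Slc1a2 (0.69, 0.00549) and Slc1a3 (1.41, 0.0149) still passed in edgeR. With DESeq2 the term for Slc1a3 was 1.199 and did not pass (adjusted p = 0.137). In Index_fresh, on which the term rests, astrocyte-like nuclei were 0.968% of nuclei against 1.55 to 2.54% elsewhere, and the part of that share was not tested.

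Of the 20 genes of glutamate handling, 0 were higher and 10 lower with Index in neuron-like nuclei in edgeR, where 8.14% of all genes were lower, and the list's median log2 fold change was -0.41 against -0.04 over all genes. They included the sodium pump gene Atp1b2 (-0.73, 26.1 with Index against 47.9 CPM) and Kcnj10 (-0.93, 1.79 against 3.73 CPM). Glul (-0.62, 7.61 against 13.3 CPM) and the vesicular glutamate transporter Slc17a6 (-0.82, 30.7 against 62.0 CPM) were also among them. In astrocyte-like nuclei 0 of the 18 list genes tested passed for the primer in edgeR, where 0.143% of all genes passed. The list's median there was 0.21 against -0.01 over all genes. Over all nuclei 7 of the 20 were lower and 0 higher with Index, where 7.88% of all genes were lower. For storage 0 of the 20 passed in any of the 3 sets of nuclei. Of the 10 kidney transporters 3 were higher and 1 lower with Index over all nuclei, where 7.88% of all genes were higher and kidney-rich nuclei sat in Index_frozen libraries alone; in neuron-like nuclei 0 of the 6 tested passed, and 0 passed for storage. Cd44, beside Slc1a2, was lower with Index in neuron-like nuclei (18.4 ± 4.03 against 107 ± 3.05 CPM, -2.45, adjusted p = 3.31e-07 in edgeR), while Slc1a2 in the same nuclei was at 364 to 428 CPM with Index and 328 to 462 CPM with No_index.

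The genes whose levels over the 22 clusters most resembled each transporter are given by Pearson's r on log2(CPM + 5), as a description over clusters that share libraries. For Slc1a3 they included Tril (0.90), S1pr1 (0.89) and Gli2 (0.89), and for Slc1a2 they were Ttyh1 (0.83), Ncan (0.82) and Hrh1 (0.81). Slc1a6 was nearest to Zfand4 (0.95), Spry3 (0.94) and Alpk2 (0.94), followed by the Purkinje marker Ppp1r17 (0.93). Slc1a5 was nearest to Ptgfr (0.98) and Slc22a8 (0.98), the latter a kidney anion transporter. Slc1a1 (Pik3cb, 0.86) and Slc1a4 (Bach2, 0.83) had looser matches.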

How the data were processed

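The deposited values are raw UFI counts per gene and nucleus, made by the authors, who trimmed poly-A tails with Cutadapt, extracted barcodes with UMI-tools, aligned with STAR, kept uniquely mapped reads and assigned them to genes, introns included, with featureCounts. The submitters' processing notes list GRCm38 and mm10 among the builds and no versions, and whether counting used strand or how overlapping genes were treated is not given in the sources used here. The 5 species-mix count matrices of cell lines were not used. The 6 genes, the lists and the markers were chosen with earlier results of these data known.

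All 11198 nuclei were kept, as each had at least 500 genes, and no doublet caller was run, so doublets remain. Counts were scaled to 10000 per nucleus and logged in scanpy 1.11.5. With 2000 variable genes that excluded the 6 transporters, 40 principal components, 10 neighbours and the Leiden algorithm (resolution 0.4) 22 clusters were obtained. A cluster was named when at least 3 and 50% of a class's markers were 2-fold above the other clusters and 1 was among its 10 leading genes, or as neuron-like when at least 3 neuron markers lay above their mean over all clusters and no marker of another class led; none of the neuron-like clusters had more than 1 neuron marker 2-fold above the others. Gene positions come from the GENCODE annotation of GRCm38, and promoters from RefSeq.

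UFIs were summed per library and class. Class differences are means of log2(CPM + 5) within libraries, tested by exact sign-flip permutation. Storage and primer were tested in edgeR 4.0.16 (TMM scaling, filterByExpr with a minimum count of 10, glmQLFTest, adjusted p of 0.05), and repeated in DESeq2 1.42.0. On simulated data in which 200 genes were changed by a log2 fold of 1.5, the storage fit over all 19299 genes recovered 200 of them with 6.98% false calls, and the primer fit recovered 197 with 4.83%. The simulation gave all genes the same fixed spread between libraries and changed only genes above a minimum expected count. Its recovery is therefore not the power of these fits for the 6 transporters. Intervals are exact at the 95% level, and detection was thinned to 3000 UFIs. The named genes are the 6 transporters, genes within 100 kb of Slc1a2, the 5 most similar genes of each transporter, and up to 6 members each of a list of 20 genes for glutamate handling and of 10 kidney amino acid transporters. Some genes that this rule or the clusters bring up are not reported here, though list counts include them. Alternatives covered the scaling, the low-count filter, DESeq2, a replicate block, the pseudocount, clustering settings, the transmitter ratio, the deepest nuclei and leaving out each library or foreign nuclei.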

Additional observations from a re-analysis of the deposited data

Results flagged for a closer look

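Among 44 groups of 4 to 7 libraries, 3 held a library far from the others by Dixon's criterion, which chance gives in about 1 in 20 groups. Slc1a4 over all nuclei was 28.2 CPM in No_index_frozen 2, where the other 3 frozen libraries lay between 21.8 and 22.3 CPM. Slc1a6 in astrocyte-like nuclei was 24.9 CPM in No_index_frozen 1 (17 such nuclei), where the other 3 frozen libraries lay between 6.60 and 9.68 CPM. The difference of Slc1a6 between glutamatergic and GABA neuron-like nuclei was 0.56 (log2) in Index_fresh, where the other 6 libraries lay between -0.03 and 0.19.

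The frozen minus fresh difference over all nuclei differed between the primers for 4 transporters, by an interaction term in edgeR, which rests on the single Index_fresh library and assumes that it varies like the others. It was higher with Index by 0.52 for Slc1a2, 1.27 for Slc1a3 and 3.24 for Slc1a5, and for Slc1a6 the term was -1.75. Without kidney-rich and cerebellar nuclei the terms of Slc1a5 (0.48, adjusted p = 0.793) and Slc1a6 (-0.28, adjusted p = 0.281) did not pass in edgeR.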

How the results depend on the processing

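Depth limited Slc1a5, with 226 UFIs in all, and the astrocyte-like and Purkinje-like levels, which rest on few nuclei. The signs of Slc1a2, Slc1a3, Slc1a4 and Slc1a1 between astrocyte-like and neuron-like nuclei and their side of the threshold held under all 12 alternatives run for each, with log2 differences of 3.21 to 3.77 for Slc1a2. That of Slc1a6 ranged from -0.47 to -0.24 with a library left out.

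The glutamatergic minus GABA differences were the least stable. At a clustering resolution of 1.2 they were -0.0877 for Slc1a1, -0.0324 for Slc1a3, -0.65 for Slc1a4, -0.00125 for Slc1a5 and -0.73 for Slc1a6. With 20 principal components they were -0.0689 for Slc1a1, 2.64 for Slc1a2 and -0.0424 for Slc1a3. Without the 5% deepest nuclei they were 2.13 for Slc1a2, -0.74 for Slc1a3 and -0.000119 for Slc1a5. With a transmitter ratio of 3, chosen after seeing the data, they were -0.50 for Slc1a3, -0.0404 for Slc1a5 and -0.59 for Slc1a6. With the unnamed cluster counted as glutamatergic, also chosen after seeing the data, Slc1a1 was at -0.0675. Leaving out each library gave -0.00155 to 0.0794 for Slc1a1, 1.78 to 1.98 for Slc1a2, -1.05 to -0.81 for Slc1a3 and -0.0038 to 0.0245 for Slc1a5. For Slc1a2 every alternative kept the sign, and fewer libraries or fewer genes with the smallest p raised the adjusted p. For the others the cause was not tested.

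Counts of changed genes moved more than the 6 transporters did. For storage over all nuclei the 40 genes became 322 with DESeq2, 1937 without a filter on low counts, 16 without cerebellar nuclei and 63 without cerebellar and kidney-rich nuclei, and 4 to 840 with a library left out (840 without Index_fresh, 4 to 16 without any other library but No_index_fresh 2, and 34 without that one). For the primer the 3041 genes became 4787 without a filter and 1009 to 5668 with a library left out (5668 without Index_fresh). The 3168 genes of the interaction became 1807 with DESeq2, 1301 without cerebellar and kidney-rich nuclei and 2313 to 3019 with a library left out, which was not possible for Index_fresh, the only library of its group. In neuron-like nuclei the 63 genes for storage became 114 with DESeq2, 492 without a filter and 21 to 507 with a library left out, and the 3179 for the primer became 1995 to 2960. In astrocyte-like nuclei the count of 0 for storage became 1 with DESeq2, 14 without a filter and 0 to 2 with a library left out, and the 11 for the primer became 21, 100 and 3 to 50. Without a filter Slc1a5 (1.48) and Slc1a6 (0.81) passed for storage, Slc1a3 (-0.33) and Slc1a5 (1.39) for the primer over all nuclei, and Slc1a3 (-0.32) in neuron-like nuclei.

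The sign of small differences turned. For storage over all nuclei Slc1a1 (0.01) was at -0.0166 without a filter, -0.00854 with upper-quartile scaling, -0.0911 without kidney-rich and hepatocyte-like nuclei and -0.0578 without cerebellar and kidney-rich nuclei. For the primer Slc1a5 was at -0.21 and -0.25 without the same nuclei, and for the interaction Slc1a1 was at -0.13 without cerebellar and kidney-rich nuclei. In astrocyte-like nuclei Slc1a1 for storage (0.00284) was at -0.00622 with DESeq2 and -0.0529 without a filter. With a library left out, the ranges for storage over all nuclei were -0.0494 to 0.0431 for Slc1a1, -0.23 to 0.52 for Slc1a3, -0.0220 to 0.11 for Slc1a4 and -0.0842 to 2.09 for Slc1a5. For the primer over all nuclei they were -0.0537 to 0.26 for Slc1a2 and -0.66 to 0.13 for Slc1a3. In neuron-like nuclei Slc1a2 ranged from -0.21 to 0.0769 for storage and from -0.0173 to 0.27 for the primer. In astrocyte-like nuclei the ranges for storage were -0.29 to 0.67 for Slc1a1, -0.42 to 0.47 for Slc1a2 and -0.43 to 0.49 for Slc1a3, and for the primer -0.78 to 0.22 for Slc1a1.

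Libraries with the same replicate number did not deviate together, with correlations of -0.0124, 0.0412 and -0.0427 over 19299 genes between pairs of groups. These values cannot show whether the numbers pair the libraries, since a shared mouse need not leave a shared deviation. With the replicate number as a block, 5 genes passed for storage and 1731 for the primer over all nuclei, and the calls of the 6 transporters were as without it.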
